A study of Mus musculus with 20 samples.

Results

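A set of 10 genes that mark hepatic stellate cells and their activation was followed mouse by mouse across the 4 diet groups. It was a fixed list of 10 gene symbols (Acta2, Des, Vim, Tagln, Pdgfrb, Pdgfra, Lrat, Reln, Lum and Dcn) out of 18193 genes that had a probe set assigned to 1 gene only, and the brightest such probe set stood for each gene. All 10 were measured. The study hybridized liver RNA of 20 male C57BL/6J mice (the sample labels spell the strain C56BL/6J), 7 weeks old at the start, to 1 array per mouse after 12 weeks of feeding. All livers were collected after a fast of 2 h. The CL + AX group (n = 5) ate the CL diet with 0.02% astaxanthin, a carotenoid antioxidant, and the CL + VE group (n = 5) ate the CL diet with 0.02% vitamin E. The CL group (n = 5) ate the unsupplemented CL diet, in which 60% of calories came from fat, and the feed held 0.5% sodium cholate and 1.25% of cholesterol. The NC group (n = 5) ate normal chow (CRF-1). The CL diet is a model of nonalcoholic steatohepatitis made by diet alone, without a transgene, and the cholate and cholesterol were given together in every CL group, so their parts cannot be told apart.

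Stellate cells are pericytes of the liver sinusoid that store vitamin A as retinyl ester. Injury turns them into myofibroblasts, which lose retinoid, divide under platelet-derived growth factor (PDGF), contract and lay down matrix. Lrat makes the stored retinyl esters and is the classic gene of the resting state, whereas Acta2 (smooth muscle actin) and Tagln (the actin-binding protein transgelin) mark the contractile state. In whole liver, fewer cells of a type and less RNA per cell cannot be told apart.

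Promoter sequence of 3 members is shown because they carry the contrast described here: Vim, a filament gene that rose on the CL diet, Des, a filament gene of the same class that did not pass the test, and Lrat, the resting-state gene. Each line gives the 250 bases upstream of the RefSeq start (GRCm38.p6), 5′ to 3′ on the gene's strand, and capitals mark TATAA and the CArG box with 1 base of its A/T core allowed to differ, both searched on both strands.
Vim, chr2:13574061-13574310, plus strand: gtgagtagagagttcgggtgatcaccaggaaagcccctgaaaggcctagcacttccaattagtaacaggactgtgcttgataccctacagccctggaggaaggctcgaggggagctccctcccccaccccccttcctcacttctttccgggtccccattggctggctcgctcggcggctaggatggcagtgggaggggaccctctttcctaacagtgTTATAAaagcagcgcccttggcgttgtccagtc
Des, chr1:75360042-75360291, plus strand: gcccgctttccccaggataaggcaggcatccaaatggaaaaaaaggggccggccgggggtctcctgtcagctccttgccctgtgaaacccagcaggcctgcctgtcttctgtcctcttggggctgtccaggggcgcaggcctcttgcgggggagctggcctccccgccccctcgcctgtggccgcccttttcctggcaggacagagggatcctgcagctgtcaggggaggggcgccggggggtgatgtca
Lrat, chr3:82903975-82904224, minus strand: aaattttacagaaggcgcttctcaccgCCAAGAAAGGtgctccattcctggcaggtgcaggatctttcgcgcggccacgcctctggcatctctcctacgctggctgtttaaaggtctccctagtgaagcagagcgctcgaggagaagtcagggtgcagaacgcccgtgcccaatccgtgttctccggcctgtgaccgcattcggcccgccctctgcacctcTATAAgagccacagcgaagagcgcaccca
RefSeq promoters were matched for 6 of the 10 members. TATAA lay in 22.8% of all 32851 such windows. It began 29 bases upstream of the start in Lrat, and in Vim overlapping matches on the 2 strands began 33 and 32 bases upstream. A full CArG box, the site of serum response factor, occurred in 1.47% of windows and in none of these 6. With 1 base of the A/T core allowed to differ it occurred in 8.59% of windows, 1 time in Lrat (223 bases upstream) and 2 times in Acta2 (84 and 34 bases upstream, in a window that lies partly inside the annotated Acta2 gene). These matches describe letters only.

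Values are log2 of the array signal after quantile normalization. A member was called at a limma adjusted p under 0.05 over 45037 probe sets. The median deposited signal of an array was 26.4 to 27.8 in CL + AX, 17.1 to 20.8 in CL + VE, 19.4 to 24.9 in CL and 13.0 to 18.9 in NC. The log2 ratio of the 3′ to the 5′ control probe set of Gapdh, a sign of RNA and labelling quality, averaged -0.17 ± 0.06 in CL and 0.57 ± 0.14 in NC (SD, n = 5), and that of Dap, a control RNA added at labelling, averaged 1.24 ± 0.13 in CL and 3.14 ± 0.18 in NC. In CL + AX and CL + VE the Gapdh ratio averaged -0.14 ± 0.05 and -0.03 ± 0.12, and the Dap ratio 1.22 ± 0.12 and 1.32 ± 0.53. NC thus stood apart from every CL group in both ratios. Dap is not liver RNA, so labelling differed along with the diet. In each comparison with NC the parts of diet and of labelling cannot be told apart, and they were not tested. Individual mice also stood apart. CL mouse 2 was the highest CL mouse for 9 of the 10 members, CL + AX mouse 2 the highest of its group for 8 and CL + VE mouse 5 for 7. CL + AX mouse 3 was the lowest of its group for 8. NC mouse 4 was the highest NC mouse for 9 members and NC mouse 2 the lowest for 6. CL + VE mouse 4 was highest for Acta2, Tagln and Des but lowest for Lrat and Reln. Several results that rest on these mice, but not all, are given with and without them.

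**Figure D1:**
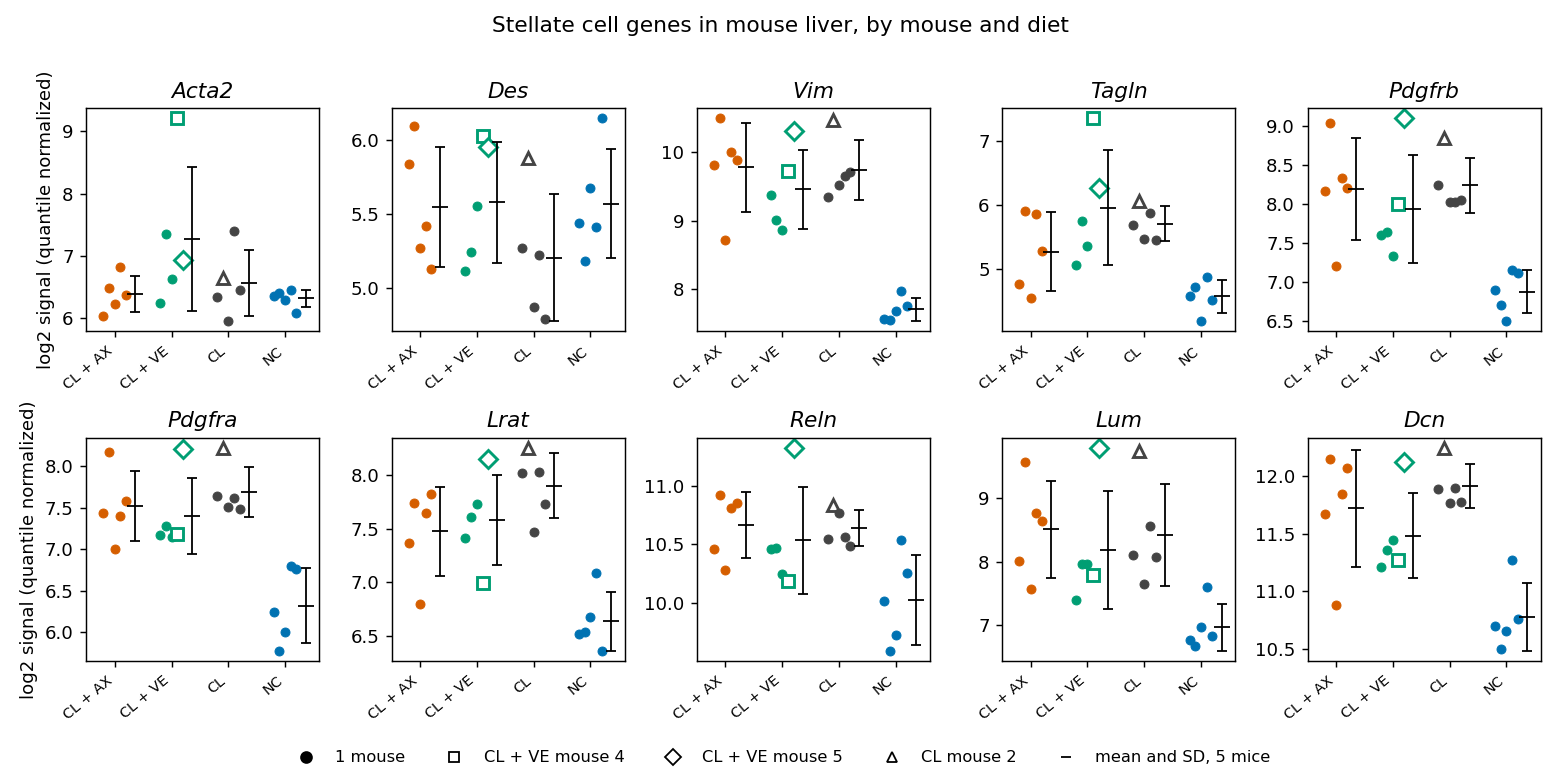
Log2 signal of each member (vertical axis, quantile normalized, scale set per gene) in every mouse of the CL + AX, CL + VE, CL and NC groups, with the mean and SD of 5 mice beside each group. Vim lies at 9.34 to 10.47 in CL mice and at 7.55 to 7.97 in NC mice, whereas Acta2 and Des overlap, and the open square of CL + VE mouse 4 stands at 9.21 for Acta2.

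Livers of CL mice carried more RNA of most stellate cell genes than NC livers, and the resting-state gene Lrat was among those that rose. Of the 10 members, 8 rose (Vim, Lum, Pdgfra, Pdgfrb, Lrat, Dcn, Tagln and Reln), none fell, and Acta2 and Des did not pass the test. Over all probe sets, 9.28% were called higher and 8.29% lower. The members' median log2 fold change was 1.2, against -0.04 over all 18193 genes. In 7 of the 10 the CL and NC mice did not overlap, Reln, Acta2 and Des being the others. Over all 18193 genes, 15.9% had no overlap, in either direction. Without CL mouse 2 the count fell to 5, since Tagln (adjusted p = 0.0524), Lum (adjusted p = 0.0515) and Reln were then no longer called.

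Among the filament and contractile genes, Vim changed most of the 10. Vim (chr2:13574311-13582826), the type III intermediate filament vimentin of mesenchymal cells and of leukocytes, measured 9.34, 10.47, 9.52, 9.65 and 9.71 in CL mice 1 to 5, against 7.56, 7.55, 7.69, 7.97 and 7.75 in NC mice. The lowest CL mouse was thus well above the highest NC mouse. The difference was a log2 change of 2.03 (SE 0.27, adjusted p = 1.73e-05), or 4.10-fold. Tagln (chr9:45929628-45936058) measured 5.69, 6.07, 5.46, 5.88 and 5.45 in CL mice, against 4.58, 4.72, 4.18, 4.88 and 4.51 in NC mice, again without overlap. Its log2 fold change was 1.14 (SE 0.33, adjusted p = 0.0197), and it was not called without NC mouse 3.

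Acta2 and Des went otherwise. Acta2 (chr19:34240336-34255585), the usual marker of the activated cell, measured 6.34, 6.64, 5.95, 7.40 and 6.45 in CL mice, against 6.36, 6.39, 6.29, 6.44 and 6.08 in NC mice. CL mice 2, 4 and 5 exceeded the highest NC mouse, CL mouse 4 by the most, and CL mouse 3 lay below every NC mouse. The log2 fold change was 0.24 (SE 0.36, adjusted p = 0.726), with a 95% interval of -0.51 to 0.996, and it was 0.03 without CL mouse 4. Des (chr1:75360292-75368579), the muscle filament desmin that resting rodent stellate cells also carry, measured 5.27, 5.88, 4.87, 5.22 and 4.79 in CL mice, against 5.44, 5.18, 5.67, 5.41 and 6.15 in NC mice. The groups overlapped, and the log2 fold change was -0.37 (SE 0.24, adjusted p = 0.358), with an interval of -0.87 to 0.14. It was 0.18 on the signals as deposited, without scaling.

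Both PDGF receptors rose. Pdgfrb (chr18:61045127-61085067), the receptor through which PDGF drives stellate cell division, measured 8.25, 8.85, 8.02, 8.03 and 8.05 in CL mice, against 6.90, 6.70, 6.50, 7.15 and 7.11 in NC mice. No NC mouse reached the CL range, with a log2 change of 1.37 (SE 0.29, adjusted p = 0.00177). Pdgfra (chr5:75151322-75198206), the sister receptor found on stellate cells and other fibroblasts, measured 7.65, 8.22, 7.51, 7.62 and 7.49 in CL mice, against 6.25, 5.78, 6.01, 6.80 and 6.76 in NC mice. These groups did not overlap either, and the log2 fold change was 1.38 (SE 0.23, adjusted p = 0.000205). Averaged with its 2 dimmer probe sets the gene was not called (0.62, adjusted p = 0.131).

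The proteoglycan genes Lum and Dcn rose as well, with different spread. Dcn (chr10:97479500-97518163), which encodes decorin, a small leucine-rich proteoglycan that binds collagen and TGF-beta, measured 11.89, 12.24, 11.77, 11.90 and 11.77 in CL mice, against 10.70, 10.50, 10.65, 11.27 and 10.76 in NC mice. The CL mice lay close together and all above the NC mice, giving a log2 change of 1.14 (SE 0.20, adjusted p = 0.000276). Lum (chr10:97565501-97572703), which encodes lumican, a collagen-binding protein of the same family, measured 8.10, 9.75, 7.65, 8.56 and 8.08 in CL mice, against 6.77, 6.67, 6.97, 7.60 and 6.83 in NC mice. CL mouse 3 cleared NC mouse 4 by little and CL mouse 2 was far above the rest. The log2 fold change was 1.46 (SE 0.41, adjusted p = 0.0143).

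The genes of the resting stellate cell rose with the others. Lrat (chr3:82892582-82903974) measured 8.02, 8.25, 7.47, 8.03 and 7.73 in CL mice, against 6.52, 6.54, 6.68, 7.09 and 6.36 in NC mice. No CL mouse was as low as the highest NC mouse, and the log2 fold change was 1.26 (SE 0.20, adjusted p = 0.000133), or 2.40-fold. Reln (chr5:21884454-22344705), which encodes reelin, a secreted glycoprotein that stellate cells make in the liver, measured 10.55, 10.83, 10.77, 10.56 and 10.48 in CL mice, against 10.01, 9.59, 9.72, 10.54 and 10.26 in NC mice. Here NC mouse 4 reached into the CL range. The log2 fold change was 0.61 (SE 0.19, adjusted p = 0.0252), and the call was lost without NC mouse 2 (adjusted p = 0.0811), NC mouse 3, CL mouse 2 or CL mouse 3. It was also lost with median centring (0.40, adjusted p = 0.15).

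Other probe sets of the members did not all move alike. The 10 genes had 21 single-gene probe sets. The remaining 2 of Vim rose by log2 fold changes of 1.89 and 1.80 (adjusted p = 4.02e-05 and 6.48e-05), and the dimmer set of Pdgfrb by 2.26 (adjusted p = 0.00205). The dimmer Lrat set had a log2 fold change of 1.09 (adjusted p = 0.0565) and that of Dcn 0.38 (adjusted p = 0.292). One dim Acta2 set, at the 18.3 percentile of mean signal, was lower in all CL mice, by -2.80 (adjusted p = 0.0111), opposite in sign to the bright set, which lay at the 74.2 percentile. The suffix of the bright Acta2 set marks probes shared by several transcripts, so other actin RNA could add to it. The dim Reln set had -1.95 (adjusted p = 0.0901) and the dim Des set -1.10 (adjusted p = 0.254).

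**Figure D2:**
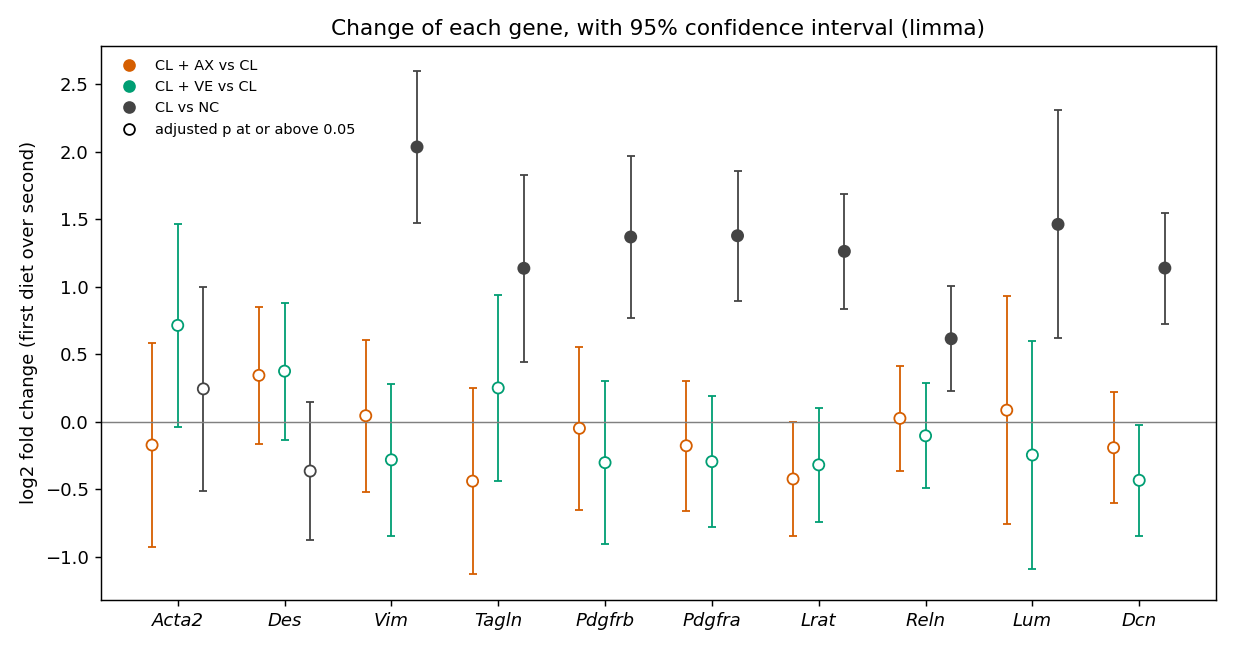
Log2 fold change of each member (points) with its 95% interval (bars) for CL + AX against CL, CL + VE against CL and CL against NC, filled where the adjusted p was under 0.05. For CL against NC 8 points are filled, from 0.61 for Reln to 2.03 for Vim, and no point of the supplemented groups against CL is.

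Supplementing the CL diet with astaxanthin or vitamin E was set against the CL diet alone to ask whether either antioxidant altered these genes. No member was called between CL + AX and CL, where 0.00222% of probe sets were called. None had an unadjusted limma p under 0.05, against 7.2% of all probe sets. The log2 fold changes ran from -0.44 (Tagln) to 0.34 (Des), with a median of -0.11 against 0.01 over all genes. The interval for Vim was -0.52 to 0.61 and for Dcn -0.60 to 0.22, so changes of those sizes were not resolved with 5 mice a group. Lrat measured 7.37, 7.74, 6.80, 7.65 and 7.83 in CL + AX mice, against the CL values given above. Of these 5, 3 lay within the CL range and CL + AX mice 1 and 3 below it. Its log2 fold change was -0.42 (SE 0.20, unadjusted p = 0.0501, adjusted p = 0.694), and -0.25 without CL + AX mouse 3.

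Vitamin E gave the same number of calls. No member was called between CL + VE and CL, where 0% of probe sets were called. An unadjusted limma p under 0.05 was reached by 1 member, Dcn, and by 7.58% of all probe sets. Dcn measured 11.21, 11.36, 11.44, 11.27 and 12.12 in CL + VE mice. CL + VE mice 1 to 4 lay below every CL mouse and CL + VE mouse 5 within the CL range. The log2 fold change was -0.43 (SE 0.20, unadjusted p = 0.0397, adjusted p = 0.634), and -0.59 without CL + VE mouse 5, still not called. Acta2 measured 6.24, 7.34, 6.62, 9.21 and 6.93 in CL + VE mice. Its log2 fold change over CL was 0.71 (SE 0.36, adjusted p = 0.683), and 0.23 without CL + VE mouse 4. Of the 10 fold changes 7 were negative and the median was -0.26, against 0.03 over all genes.

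The supplements were also set against each other. No member was called between CL + AX and CL + VE, where 0.00222% of probe sets were called. Acta2 was the only member with an unadjusted limma p under 0.05, which 8.92% of all probe sets had. Its log2 change was -0.89 (SE 0.36, unadjusted p = 0.0232, adjusted p = 0.471). That fold change was -0.40 without CL + VE mouse 4. Tagln measured 4.76, 5.91, 4.55, 5.87 and 5.28 in CL + AX mice, against 5.06, 5.76, 5.35, 7.36 and 6.27 in CL + VE mice, a log2 change of -0.69 (SE 0.33, adjusted p = 0.561). Without CL + VE mouse 4 it was -0.34.

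Both supplemented groups were also set against the NC mice that served for CL. Between CL + AX and NC, 7 of the 10 members were called, each higher, where 17.2% of probe sets were called in either direction. Vim measured 9.81, 10.49, 8.72, 10 and 9.89 in CL + AX mice, a log2 change of 2.08 over NC (SE 0.27, adjusted p = 1.28e-05). The lowest of these was still above every NC mouse. Acta2 (0.07, adjusted p = 0.934), Des (-0.02, adjusted p = 0.97) and Tagln (0.70, adjusted p = 0.173) were not called. Tagln was called with trimmed-mean scaling (0.96, adjusted p = 0.0484) and on signals as deposited (1.45, adjusted p = 0.00293). Other settings lost calls. Reln was not called with median centring (adjusted p = 0.384), gene means (adjusted p = 0.778) or no variance trend (adjusted p = 0.0541). It was also lost without NC mouse 2, NC mouse 3, CL + AX mouse 2 or CL + AX mouse 5. Median centring lost Dcn (adjusted p = 0.063) and gene means lost Pdgfra (adjusted p = 0.361). The methods' t-test lost Dcn, Lrat, Lum, Pdgfrb and Reln. Between CL + VE and NC, 6 of the 10 were called, each higher, where 13.1% of probe sets were called. Vim measured 9.38, 9.02, 8.86, 9.73 and 10.30 in CL + VE mice, a log2 change of 1.75 (SE 0.27, adjusted p = 0.000153). Acta2 (0.96, adjusted p = 0.0888), Lum (1.22, adjusted p = 0.0516), Reln (0.51, adjusted p = 0.0786) and Des (0.01, adjusted p = 0.988) were not called. Lum was called under 6 alternatives, with an adjusted p of 0.0197 on signals as deposited, 0.0279 with trimmed-mean scaling, 0.0342 with median centring, 0.0345 over brighter probe sets alone, 0.0413 with only the 2 groups fitted and 0.0328 with the replicate number as a block. It was also called in 6 of the 20 fits that left out 1 array. Acta2 was called on signals as deposited (adjusted p = 0.0406), with trimmed-mean scaling (adjusted p = 0.0429), with the block (adjusted p = 0.0215) and without CL + VE mouse 1 (adjusted p = 0.0305). The Acta2 value was 0.47 without CL + VE mouse 4 (adjusted p = 0.23), and Dcn, called at 0.70 (adjusted p = 0.0202), was not called without CL + VE mouse 5 (0.55, adjusted p = 0.0656). Dcn was also lost without NC mouse 2, with median centring (adjusted p = 0.0501) and with no variance trend (adjusted p = 0.0556). Gene means lost Pdgfra (adjusted p = 0.454), and the methods' t-test lost Dcn, Lrat, Pdgfra, Pdgfrb and Tagln.

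Activation was then read against Lrat within each mouse. The deviation from the NC mean was averaged over the 8 members other than Lrat and Reln, and the deviation of Lrat was taken from it, as a description without a test. The 8 include Des, which resting cells also carry, and Dcn and Lum, which tracked Lrat most closely within groups (r of 0.87 and 0.81). Their mean is therefore not a measure of activation alone. The mean of the 8 genes deviated by 0.98 ± 0.48 in CL + AX, 1.02 ± 0.52 in CL + VE and 1.05 ± 0.36 in CL (SD, n = 5 each). Lrat deviated by 0.84 ± 0.42 in CL + AX, 0.94 ± 0.42 in CL + VE and 1.26 ± 0.30 in CL. Both deviations were above 0 in every mouse on a CL diet. Their difference was 0.14 ± 0.24 in CL + AX, 0.08 ± 0.60 in CL + VE, -0.21 ± 0.17 in CL and 0.00 ± 0.23 in NC. Means without single mice were added after the data were seen. Without CL + VE mouse 4 the CL + VE mean was -0.17 ± 0.27 (n = 4), below 0 and near that of CL. Without CL + AX mouse 2 the CL + AX mean was 0.05 ± 0.16, and without CL mouse 2 the CL mean was -0.27 ± 0.14.

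Mouse by mouse, the difference was 0.10, 0.50, 0.13, 0.16 and -0.18 in CL + AX mice 1 to 5. It was -0.27, -0.16, -0.44, 1.08 and 0.19 in CL + VE mice, -0.45, 0.02, -0.13, -0.24 and -0.25 in CL mice and 0.05, -0.10, -0.18, -0.15 and 0.38 in NC mice. In 4 of 5 CL mice Lrat had moved further from NC than the mean of the 8 genes, and in 4 of 5 CL + AX mice it had moved less. The ranges of these 2 groups still overlapped. CL + VE mouse 4 had the highest difference of all 20 mice.

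**Figure D3:**
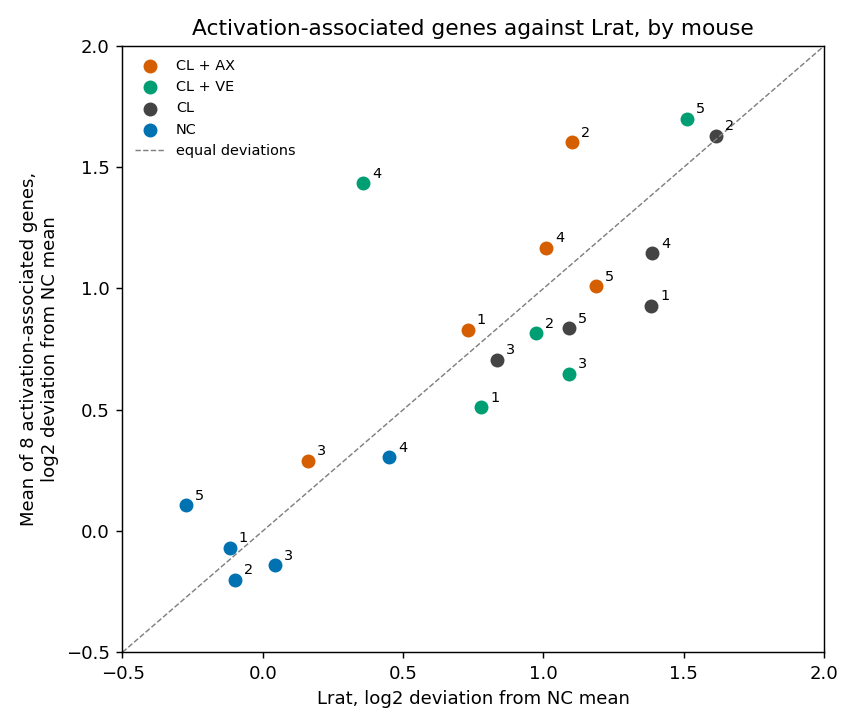
Mean log2 deviation from the NC mean of the 8 members other than Lrat and Reln (vertical axis, labelled activation-associated) against that of Lrat (horizontal axis). Each point is a mouse, numbered within its group, and the dashed line marks equal deviations. Most mice lie near the line, CL + VE mouse 4 lies far above it at 1.43 against 0.36, and CL + AX mouse 3 lies nearest to the NC mice at 0.29 against 0.16.

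For the marker pair most often read together, Acta2 against Lrat, the deviation of Acta2 minus that of Lrat averaged -0.77 ± 0.37 in CL + AX, 0.01 ± 1.46 in CL + VE, -1.02 ± 0.43 in CL and 0.00 ± 0.20 in NC. It was below 0 in all 5 CL + AX mice and all 5 CL mice. The 5 CL + VE mice measured -0.85, 0.06, -0.78, 2.54 and -0.90, so that the mean near 0 came with 1 mouse far above the rest. Without CL + VE mouse 4 it was -0.62 ± 0.45 (n = 4).

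Within groups, the members fell into those that tracked Lrat and those that did not. Over the 20 arrays, after the mean of each group was taken off, Pearson's r with Lrat was 0.87 for Dcn, 0.81 for Lum, 0.66 for Reln, 0.65 for Pdgfra, 0.62 for Pdgfrb and 0.58 for Vim. It was 0.20 for Tagln, 0.19 for Des and -0.14 for Acta2. Without CL + VE mouse 4 (19 arrays), r with Lrat was 0.63 for Tagln and 0.30 for Acta2. Acta2 and Tagln had an r of 0.81 with each other, and 0.67 without that mouse. The points share array, RNA preparation and normalization, and these values are a description.

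CL + VE mouse 4 also differed in genes outside the 10, which were chosen after its values were seen. Myl9, a light chain of smooth muscle myosin, measured 7.53 there and 4.76 to 5.42 in the other CL + VE mice. Cnn1, the smooth muscle protein calponin, measured 5.33 there and at most 1.74 in the other 19 mice. The bile duct keratin Krt19 measured 7.73 there and 3.70 to 5.26 in the other 19, and Epcam, an epithelial surface protein of bile ducts, 7.13 against 0.50 to 6.72. The mean of the 7 vascular smooth muscle markers was 4.89 in this mouse and 2.68 to 3.28 in the other CL + VE mice, and that of the 5 cholangiocyte markers 5.70 against 3.26 to 5.07. Cnn1 belongs to the smooth muscle list, 5 of whose 7 genes are also in the contractile list, and Krt19 to both the cholangiocyte and the mesothelial list. The means of the mesothelial markers (5.56 against 3.57 to 4.89) and portal fibroblast markers (4.92 against 4.06 to 4.65) were highest there too. Thus the mean of each of these lists was highest in its group in the mouse with the most Acta2. Not every listed gene followed, since the cholangiocyte marker Sox9 measured 5.74 there and 6.07 in CL + VE mouse 3. The part of these other cells in the Acta2 and Tagln values of this mouse was not tested.

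The genes whose pattern over the 20 arrays was most like that of a member were ranked among 11397 genes of at least median signal. For Acta2 they were Myl9 (r = 0.85), Tagln (0.78), Rreb1 (0.75), Krt19 (0.75) and Kctd14 (0.71). CL + VE mouse 4 had the highest value of all 20 mice for Acta2 (9.21), Myl9 (7.53), Tagln (7.36), Rreb1 (9.52) and Krt19 (7.73). The ranking was not repeated without that mouse, so these r may rest largely on it. For Dcn they were Igfbp7 (0.95), Atp7a (0.94), Pdgfra (0.94), Pdgfrb (0.93) and Tnfrsf21 (0.93), so that 2 of the 5 were members. For Lrat they were Dcn (0.93), Igfbp7 (0.92), Fcgr3 (0.91), Septin4 (0.91) and Ly86 (0.91). Fcgr3 is an Fc receptor of myeloid cells. These r include the differences between diets. After group means were taken off, Dcn and Igfbp7 had an r of 0.89 and Lrat and Fcgr3 0.78.

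Genes around the members were read in 16 lists for CL against NC. Of 17 measured genes of the resting stellate cell, 8 were higher in CL and none lower, where 9.28% of all probe sets were called higher, and their median log2 fold change was 0.68. The count was 14 on signals as deposited and 4 with the methods' t-test. Colec10 and Colec11, collectins made by stellate cells, rose by 1.10 (adjusted p = 0.00025) and 0.91 (adjusted p = 7.99e-05), and Lhx2, a transcription factor that holds stellate cells at rest in mice, by 1.05 (adjusted p = 0.000793). The mean log2 level of the list was 7.15 to 7.36 in CL mice and 6.34 to 6.97 in NC mice, without overlap. Of 12 matrix and activation products 10 rose, at a median of 1.28, none fell, and the count was 7 without CL mouse 2 and 5 with the methods' t-test. Col3a1, a fibrillar collagen, rose by 2.20 (adjusted p = 0.000474), Timp1, an inhibitor of matrix proteases, by 2.15 (adjusted p = 0.000695), and Sparc, a matrix glycoprotein, by 1.32 (adjusted p = 0.000684).

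Of 19 contractile and actin genes 5 rose, none fell, and their median was 0.38. That count was 11 on signals as deposited, 8 with trimmed-mean scaling and 2 with the methods' t-test, and with median centring 4 rose and 2 fell. Those with the smallest p were Flna (1.21, adjusted p = 0.00119), an actin crosslinker, Actn1 (0.74, adjusted p = 0.00113), an alpha-actinin, and Actg1 (0.62, adjusted p = 0.000613), a cytoplasmic actin of nearly all cells. Of 11 other small leucine-rich proteoglycans, 5 rose and none fell, among them Omd (1.16), Prelp (1.11) and Bgn (0.89, adjusted p = 0.00244). Of 5 genes listed under PDGF ligands, not all of them ligands themselves, 3 rose. They were Pdgfc (1.34, adjusted p = 1.63e-06), Pdgfd (1.33, adjusted p = 0.000196) and Pdgfa (0.53, adjusted p = 0.0256). The receptors and 3 of their ligands were thus higher in the same livers. Of 11 other intermediate filament genes and partners none rose and 1 fell, Nes (-0.62, adjusted p = 0.0241), which encodes nestin. Without scaling 2 of these genes rose and none fell.

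Retinoid genes did not move together. Of 11 enzymes and receptors, 2 rose and 2 fell, with a median of 0.01. Dgat1, which can also esterify retinol, fell by 0.88 on the log2 scale (adjusted p = 1.39e-06), Aldh1a1, which makes retinoic acid, by 0.32 (adjusted p = 0.00896), and Cyp26b1, which degrades it, rose by 0.82 (adjusted p = 0.0105). Dgat1 was not called with gene means (-0.29, adjusted p = 0.375), nor Aldh1a1 on signals as deposited (adjusted p = 0.0694). Hepatocytes also express Dgat1 and Aldh1a1. Of 6 reelin receptors and adaptors 2 rose, the signalling proteins Fyn (0.64, adjusted p = 0.0101) and Crk (0.44, adjusted p = 0.00786), both found in many cell types. Crk was not called with gene means (0.094, adjusted p = 0.584) or median centring (adjusted p = 0.161). With the methods' t-test neither was called. No gene of any of the 16 lists was called between either supplemented group and CL.

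**Figure D4:**
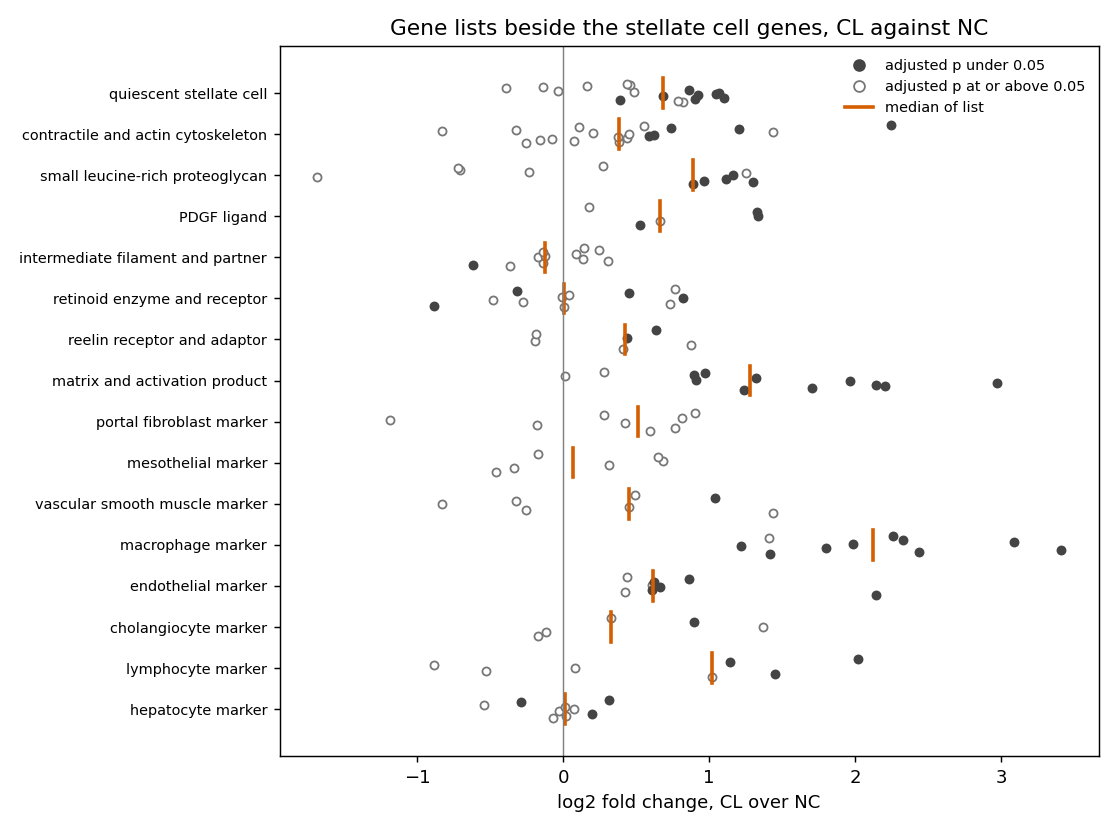
Log2 fold change of CL over NC (horizontal axis) for every measured gene of 16 lists (rows), filled where the adjusted p was under 0.05, with the list median as a vertical bar. Macrophage markers have the highest median, 2.12, and matrix and activation products the next, 1.28, while the hepatocyte, retinoid and intermediate filament medians lie near 0.

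Markers of other liver cells moved in the same comparison. Among 10 macrophage markers 9 rose, none fell, and the median log2 fold change was 2.12, at a mean level of 8.36 to 9.86 in CL mice and 6.12 to 7.89 in NC mice. Lyz2 rose by 3.41 (adjusted p = 1.48e-06), Vsig4 by 2.33 (adjusted p = 1.48e-05) and Csf1r by 1.80 (adjusted p = 3.3e-05). Of 8 endothelial markers 5 rose (8 on signals as deposited and 2 with the methods' t-test, median 0.62, mean level 7.37 to 7.66 in CL and 5.81 to 7.19 in NC), among them Stab2 (0.67) and Tek (0.86). Of 7 lymphocyte markers 3 rose, among them Ptprc (2.02), with a mean level of 4.29 to 4.99 in CL mice and 3.84 to 4.24 in NC mice.

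Of the cells that could hold Acta2, Tagln or Dcn besides stellate cells, few markers passed the test. Over all probe sets, 9.28% were called higher. Mean levels of the portal fibroblast, mesothelial, smooth muscle and cholangiocyte markers lay near or below the median probe set (4.21). The smooth muscle markers were dimmest, at 2.69 to 3.21 in CL and 2.20 to 2.95 in NC. Changes of such dim probe sets can be missed, so a missing call does not show that a cell type was unchanged. None of 8 portal fibroblast markers was called (median 0.51, mean level 3.84 to 4.46 in CL and 3.49 to 4.32 in NC), although 4 were called higher on signals as deposited, 1 with trimmed-mean scaling and 1 with gene means. None of 6 mesothelial markers was called (median 0.07), and 1 was on signals as deposited. One of 7 vascular smooth muscle markers rose, Mustn1 (1.04, adjusted p = 0.00514), and 1 of 5 cholangiocyte markers, Sox9 (0.89, adjusted p = 0.011). Hepatocyte markers lay at a mean of 12.56 to 12.63 in CL and 12.56 to 12.68 in NC, with Fgb (0.31) and Apob (0.20) called higher and Hnf4a (-0.29) lower, whereas with median centring none of the 9 was called higher and 7 lower. Vim is also made by macrophages, lymphocytes and endothelium, and the part of those cells in its rise was not tested.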

How the data were processed

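Liver RNA of each mouse was labelled with a 3′ IVT kit and hybridized to an Affymetrix GeneChip Mouse Genome array. The deposited values are intensity signals on a linear scale, 1 per probe set, made by the authors with Microarray Suite (MAS5) and handled in Subio platform. Array medians differ, so no common scaling was present. Of 45101 probe sets, 64 controls were left out. Of the rest 34945 named 1 gene, 932 several and 9160 none, by GEO's platform annotation. Log2 signals were quantile normalized, without a floor, and fitted with limma 3.58.1 in R 4.3.3 (1 model of 4 groups, 20 arrays, 16 residual degrees of freedom, variance trend), with Benjamini-Hochberg adjustment over 45037 probe sets. Promoters and loci came from RefSeq tables (GRCm38.p6).

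The members and lists were chosen with earlier results of these data known. Named were all members, up to 3 genes of each list with the smallest p for CL against NC, any list gene called against CL, and the 5 genes most correlated with Acta2, Dcn and Lrat. The alternatives were other scalings, an offset of 16, a filter on dim probe sets, the mean of a gene's probe sets, 2-group fits, no variance trend, the methods' test, a replicate block and leaving out each array. The number of arrays limits the precision, and p-values measure the spread between mice. On simulated data for CL against NC, 200 of 45037 probe sets were changed, all drawn from percentile 60 of mean signal upward. At a log2 change of 1, 79.5% of them were called, and 31% at 0.5. These shares do not cover dimmer probe sets. They come from far fewer changed probe sets than the 7910 called in the data. Closest arrays of a group differed by a median of 0.326 to 0.453 on the log2 scale, so none was a duplicate.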

Additional observations from a re-analysis of the deposited data

Results flagged for a closer look

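Within groups of 5 mice, 7 of 40 combinations of member and group held 1 mouse far from the other 4 by Dixon's test at 95%, which chance flags in about 1 of 20 groups. All 7 were high values of the same 2 mice. In CL mouse 2, Pdgfrb was at 8.85 (others 8.02 to 8.25), Pdgfra at 8.22 (others 7.49 to 7.65) and Dcn at 12.24 (others 11.77 to 11.90). In CL + VE mouse 5, Pdgfra was at 8.22 (others 7.15 to 7.28), Reln at 11.32 (others 10.18 to 10.47), Lum at 9.80 (others 7.40 to 7.96) and Dcn at 12.12 (others 11.21 to 11.44). The log2 3′ to 5′ ratio of the Dap control was 2.26 in CL + VE mouse 5, the highest of its group, and its part in these values was not tested. Acta2 in CL + VE mouse 4, at 9.21, was not among the 7, because CL + VE mouse 2 lay at 7.34.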

How the results depend on the processing

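For CL against NC, 5 to 8 members were called as each array was left out in turn, the lowest without CL mouse 2. For CL + AX and CL + VE against NC, the ranges were 6 to 7 and 5 to 8, and the methods' t-test, which does not share the spread between groups, called 2 and 1. No alternative called a member between CL + AX, CL + VE and CL. With the replicate number as a block, 8 members were called for CL against NC and 8 for CL + VE against NC, where Acta2 (adjusted p = 0.0215) and Lum (adjusted p = 0.0328) were added. The labels tie no number to a shared animal or batch, so the number was not treated as a pairing. Deviations of same-numbered mice correlated at -0.20 to 0.31. Of 20 arrays 12 correlated best with their own number, where chance gives about 1 in 5. That is a hint from the data and not the design, and whether mice of a number shared a factor was not tested. For CL against NC, 52.8% of called probe sets were higher. Without scaling that share was 95.9%, centring on the median made it 41.6%, and a trimmed mean 62.9%. Without scaling the median of all probe sets shifted by 0.40 between CL and NC. The methods' t-test called 3444 probe sets there, and gene means 3328, against 7910.

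With the mean of all probe sets of a gene, activation against Lrat in CL kept its sign at -0.44, against -0.21. As each array was left out, which was added after the data were seen, it ran from -0.27 to -0.12 in CL, 0.052 to 0.24 in CL + AX and -0.17 to 0.21 in CL + VE, below 0 in the last only without mouse 4.

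Reversed values follow, and the cause was not tested. With the mean of all probe sets of a gene, CL against NC had -1.04 for Acta2 and -0.67 for Reln. That setting gave 0.16 for Acta2 and 0.11 for Pdgfrb in CL + AX against CL, 0.87 for Reln in CL + VE against CL, -0.89 for Acta2 in CL + AX against NC, -0.066 for Des in CL + VE against NC and 0.35 for Hnf4a in CL against NC. On signals as deposited, Des was 0.18 in CL against NC, 0.74 in CL + AX against NC and 0.46 in CL + AX against CL + VE, Lrat 0.28 in the last of these, Acta2 0.0067 and Pdgfrb 0.081 in CL + AX against CL, and Tagln -0.029 in CL + VE against CL. With median centring, CL + AX against CL gave -0.059 for Lum, -0.14 for Reln and -0.12 for Vim. For CL + AX against CL + VE it gave -0.059 for Dcn, -0.049 for Pdgfra and -0.11 for Reln, and for CL against NC -0.30 for Apob and -0.18 for Fgb. With trimmed-mean scaling, Des was 0.25 in CL + AX against NC and 0.12 in CL + AX against CL + VE, Apob -0.16 and Fgb -0.036 in CL against NC.

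As each array was left out, CL + AX against CL ran from -0.33 to 0.038 for Acta2, -0.30 to 0.018 for Dcn, -0.18 to 0.42 for Lum, -0.26 to 0.20 for Pdgfrb, -0.039 to 0.12 for Reln and -0.13 to 0.31 for Vim. CL + VE against CL ran from -0.65 to 0.084 for Lum and -0.10 to 0.47 for Tagln. CL + AX against CL + VE ran from -0.17 to 0.081 for Des, -0.25 to 0.065 for Lrat and -0.045 to 0.32 for Pdgfra. Against NC, CL + AX ran from -0.036 to 0.16 for Acta2 and -0.16 to 0.12 for Des, and CL + VE from -0.10 to 0.15 for Des.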
